A study of Mus musculus with 24 samples.

Results

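The cyclin-dependent kinase (CDK) inhibitors described here are Cdkn2a, Cdkn2b, Cdkn2c, Cdkn2d, Cdkn1a, Cdkn1b and Cdkn3, chosen by gene symbol. They are represented by 11 array probes out of 56605, namely all probes whose RefSeq accession matched 1 of these 7 genes, out of 22911 genes with a symbol. The RNA was that of the kidney, liver, lung and white adipose tissue (WAT) of male C57BL/6J mice aged 10 weeks (10W) or 90 weeks (90W), with no treatment and no altered gene in the labels. Each of the 8 groups has 3 samples, measured on 24 one-colour Agilent arrays. The labels number the samples of a group (1, 2 and 3, and 1, 2 and 4 for the 90W livers) but do not state that they are separate mice, so the p-values measure the spread between these samples. The comparison asks which of these genes differ between old and young tissue.

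CDK inhibitors hold back the kinases that drive a cell through its division cycle. The Ink4 proteins, made from Cdkn2a, Cdkn2b, Cdkn2c and Cdkn2d, bind Cdk4 and Cdk6 and keep the RB protein active. The Cip/Kip proteins, among them those of Cdkn1a (p21) and Cdkn1b (p27), bind cyclin-kinase complexes more broadly. Cdkn3 is a phosphatase that inactivates Cdk2, and it is transcribed in dividing cells. Cdkn2a and Cdkn1a are the usual transcript markers of cellular senescence. Cdkn2a also encodes, from another start and reading frame, the protein Arf, which binds Mdm2 and thereby stabilises p53. Cdkn2b is the neighbour of Cdkn2a on the chromosome.

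The promoters of the genes with alternative starts, and of Cdkn3, are given here because the probes of Cdkn2a and Cdkn1a cannot be assigned to 1 start with the files used. Both Cdkn2a probes carry the accession of the same transcript, and the probe position within the gene is not given. Sequences are from RefSeq (GRCm38.p6), 5′ to 3′ on the gene's strand, and end 1 base before the start site, except that of Cdkn3, which ends before the most upstream start of the gene. In the upstream Cdkn2a promoter, at chr4:89294620-89294869 on the minus strand, capitals mark an E2F motif (TTCCCGC, its variant TTGGCGC or its variant TTCGCGC) and GC boxes (GGGCGG). The downstream Cdkn2a promoter, at chr4:89282193-89282442 on the minus strand, holds none of the searched motifs in this window. In the upstream Cdkn1a promoter, at chr17:29090729-29090978 on the plus strand, capitals mark a p53 response element, and in the downstream one, at chr17:29093519-29093768, the GC boxes. For Cdkn3, at chr14:46760291-46760460 on the plus strand, capitals mark a CHR element (TTTGAA), the motif of genes transcribed late in the cell cycle, here on the other strand.
Cdkn2a upstream: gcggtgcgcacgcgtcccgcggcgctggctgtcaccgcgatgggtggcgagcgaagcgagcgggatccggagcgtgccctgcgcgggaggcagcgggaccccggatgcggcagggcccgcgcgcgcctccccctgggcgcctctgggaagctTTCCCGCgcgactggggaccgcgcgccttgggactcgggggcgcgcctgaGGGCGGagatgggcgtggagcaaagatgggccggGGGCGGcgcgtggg
Cdkn2a downstream: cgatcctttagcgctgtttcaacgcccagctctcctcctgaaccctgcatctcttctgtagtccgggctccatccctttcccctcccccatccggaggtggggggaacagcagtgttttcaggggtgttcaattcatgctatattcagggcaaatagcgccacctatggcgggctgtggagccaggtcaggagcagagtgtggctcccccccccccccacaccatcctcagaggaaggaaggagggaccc
Cdkn1a upstream: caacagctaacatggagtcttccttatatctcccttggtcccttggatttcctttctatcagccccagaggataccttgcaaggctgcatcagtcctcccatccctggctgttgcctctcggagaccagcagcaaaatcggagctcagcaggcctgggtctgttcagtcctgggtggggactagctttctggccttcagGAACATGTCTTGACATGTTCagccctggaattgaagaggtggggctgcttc
Cdkn1a downstream: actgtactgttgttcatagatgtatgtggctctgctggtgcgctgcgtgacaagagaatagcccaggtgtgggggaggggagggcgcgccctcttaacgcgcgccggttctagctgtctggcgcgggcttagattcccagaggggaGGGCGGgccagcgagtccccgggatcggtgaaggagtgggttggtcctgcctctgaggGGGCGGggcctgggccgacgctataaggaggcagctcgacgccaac
Cdkn3: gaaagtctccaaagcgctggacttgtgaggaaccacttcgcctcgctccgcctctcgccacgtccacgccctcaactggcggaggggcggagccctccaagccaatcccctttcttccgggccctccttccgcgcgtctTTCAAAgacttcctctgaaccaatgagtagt

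Motifs were searched on both strands of the 250 bases before each start, and a match is a description of the letters, not a site in use. The p53 element of Cdkn1a began 51 bases before the upstream start. It was searched as 2 adjoining consensus decamers with at most 1 letter off, a search added after this sequence had been read, and 0.0762% of 32817 promoters held such a match. The CHR element of Cdkn3 began 111 bases before the start used for the search, and 5245 of the 32817 promoters held that motif. An E2F motif occurred in 6.69% of the promoters and a GC box in 32.7%.

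Values below are log2 signals relative to the 75th percentile of the array, and a change is the 90W mean minus the 10W mean on that scale, with its standard error (SE). Probes were tested by limma with Benjamini-Hochberg adjustment over all probes of the tissue, and a probe is called at an adjusted p under 0.05. On an array, 58.6% to 71.1% of the probes were well above background. Every tissue carried its own markers, summed over 5 genes, at 275 to 5447 times the 75th percentile. The kidney markers summed to 719 to 856 at 10W and 275 to 487 at 90W, with 3 of 5 called lower and 1 higher. The 75th percentile signal itself was 460 to 618 in the 10W and 788 to 862 in the 90W kidneys. In the livers it was 259 to 307 and 340 to 448. The part of these shifts in the kidney and liver results was not tested beyond the alternative scalings given below. Within a group the samples correlated at 0.9787 or more, except for the 10W WAT, where the lowest r was 0.9424. The 10W WAT sample 1 had fat markers at a sum of 799, against 1164 and 1195 in the others. The 90W lung sample 1 had liver markers at a sum of 233, against at most 8.16 in the other 5 lungs. Of its probes 59.5% were well above background, the lowest share in the lung. The 75th percentile signal of the 90W lung sample 2 was 560, against 844 to 956 in the other lungs. In the 3 lungs of 90W, the markers of fat summed to 5.78 to 10.6, against 22.2 to 34.2 at 10W. The part of these differences in the lung results was not tested beyond leaving out each sample. Each tissue was hybridised on 1 slide that held both ages, so levels of different tissues cannot be told apart from their slides.

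By the brightest probe of each gene, 5 of the 7 inhibitors were called higher at 90W in the kidney, 2 in the liver, and 1 each in the lung and in WAT, while no tissue had an inhibitor called lower. Cdkn2a was the gene called in all 4 tissues. Among all genes with a symbol, the share called higher was 23.6% in the kidney, 12.4% in the liver, 3.29% in the lung and 1.95% in WAT, and the share called lower was 44.5%, 14.5%, 3.48% and 0.610%. The median change of the 7 genes was 1.81 in the kidney, 1.30 in the liver, 0.34 in the lung and 0.18 in WAT, while that of all genes with a symbol was -0.23, -0.16, -0.10 and -0.06. Over single probes, 42 of the 44 pairs of probe and tissue passed the filter on dim probes, and 17 were called, all higher: 9 of 11 in the kidney, 4 of 10 in the liver, 2 of 10 in the lung and 2 of 11 in WAT. The share of all probes called higher was 20.5%, 10.2%, 2.70% and 1.97% in that order. Some of the 17 called pairs passed the filter through 90W samples alone. They are both Cdkn2a probes in the kidney, A_51_P144813 (Cdkn2a) in WAT and A_55_P1986282 (Cdkn1a) in the liver. In bulk tissue, a change in the number of cells of a type and a change in RNA per cell cannot be told apart.

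**Figure D1:**
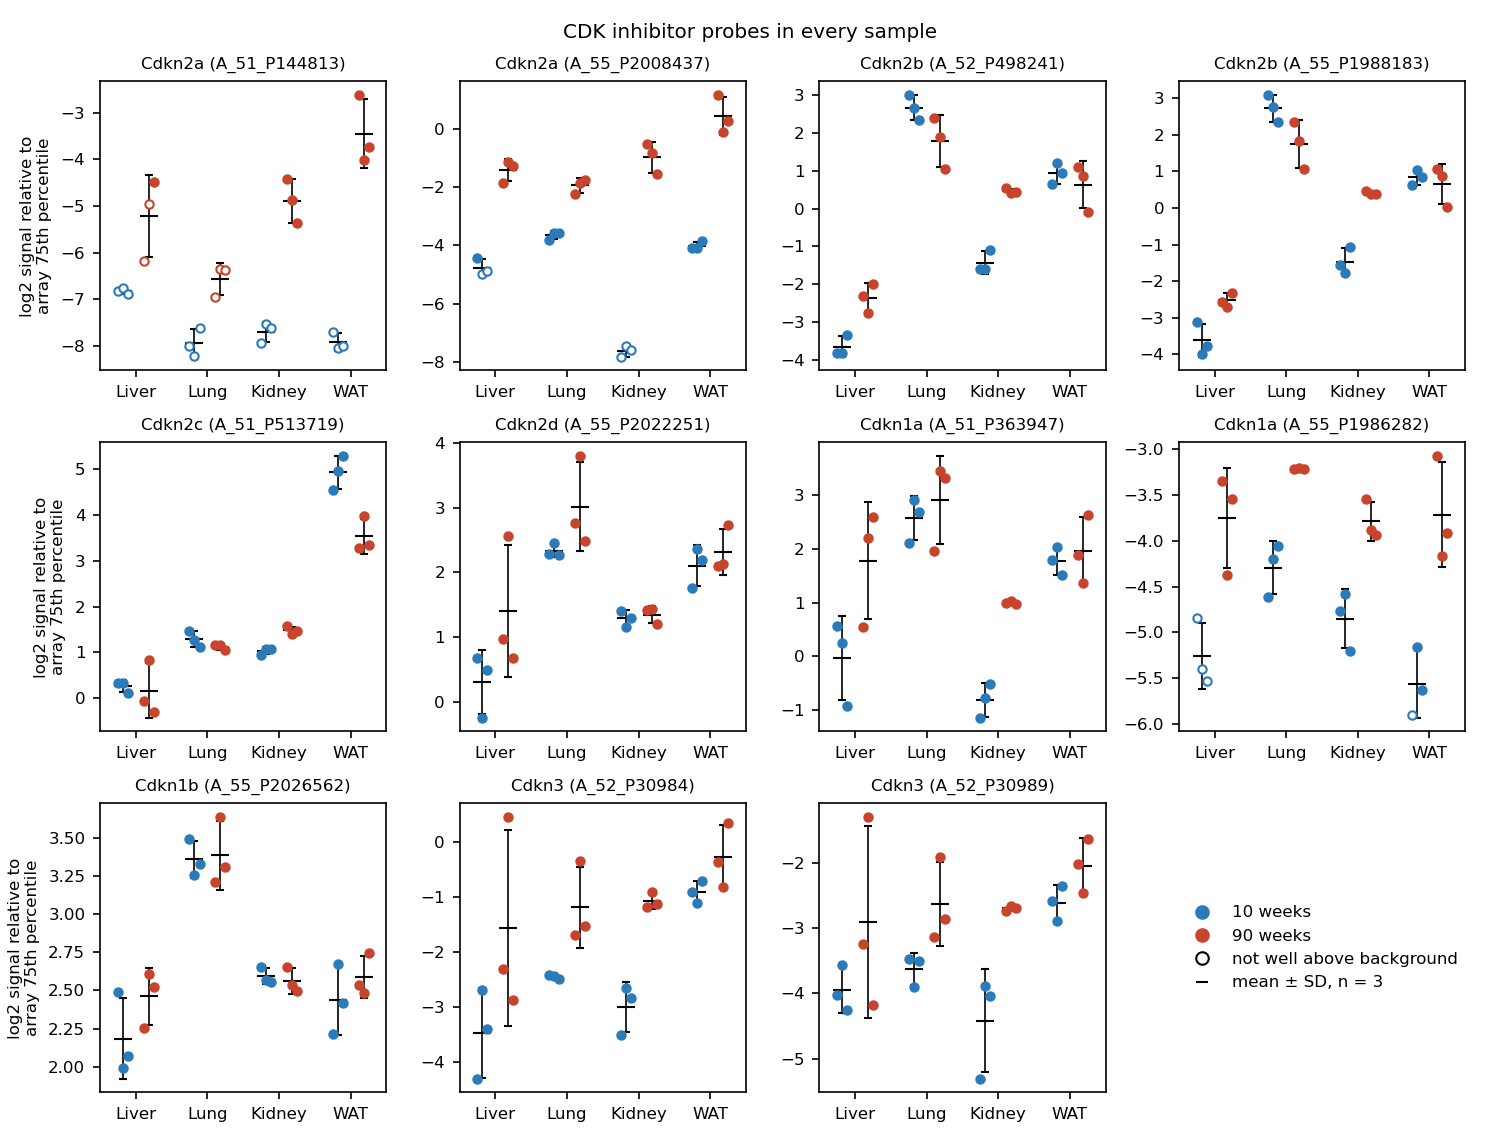
Level (vertical axis, log2 of the signal over the 75th percentile of its array) of the 11 CDK inhibitor probes by sample in the 4 tissues, at 10 weeks (blue) and 90 weeks (red). Open points are not well above background, and bars give the mean and SD of 3 samples; by probe A_55_P2008437 every 90W sample lay above every 10W sample of its tissue for Cdkn2a, while the Cdkn1b values of both ages overlapped in all 4 tissues.

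Cdkn2a was higher at 90W in every tissue by probe A_55_P2008437. In the kidney the 10W samples were at -7.85, -7.45 and -7.60 and the 90W samples at -0.52, -0.82 and -1.55. No 10W kidney was well above background, so the rise is a bound of at least 22.2-fold. The fitted change of 6.67 (SE 0.27, adjusted p = 3.06e-05 in limma) rests on signals below detection. For such bounds, the 90W mean was set against the detection limit of the 10W arrays, taken on each array as the dimmest probe still well above background or the probe's own signal where that was higher. The bound itself was not tested, and an adjusted p given with a bound is that of the fitted change.

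In WAT, Cdkn2a lay at -4.08, -4.08 and -3.86 at 10W and at 1.19, -0.08 and 0.28 at 90W. The groups were far apart, with a change of 4.47 (SE 0.34, adjusted p = 0.00514), or 22.2-fold. In the liver the 10W values were -4.43, -4.99 and -4.87, of which 1 was well above background, and the 90W values were -1.84, -1.13 and -1.27. The change in the liver was 3.35 (SE 0.25, adjusted p = 0.00124). The lung had the smallest change, 1.71 (SE 0.16, adjusted p = 0.00965), from -3.81, -3.55 and -3.56 to -2.21, -1.84 and -1.74, with all 6 lungs well above background. The lung call was lost without the 10W sample 1 (adjusted p = 0.0589) or sample 2 (adjusted p = 0.0522), and without the 90W sample 1, which carried liver markers, the change was 1.86 (adjusted p = 0.0130). With a normexp background correction, which compresses dim signals, the change was 3.81 in WAT, 3.52 in the kidney, 1.77 in the liver and 1.46 in the lung, all still called, so the kidney and WAT have no settled order.

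The order of the tissues in Cdkn2a level differed between the ages. At 10W the lung was highest and WAT next, without overlap, and both were well above background on all arrays. Below them, 1 of 3 livers and none of 3 kidneys were well above background, so no order is given for these. At 90W, WAT was highest without overlap, at a mean of 0.46 ± 0.66 (SD, n = 3), and the kidney, liver and lung followed at -0.96 ± 0.53, -1.42 ± 0.38 and -1.93 ± 0.25, each overlapping its neighbour.

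The dimmer Cdkn2a probe, A_51_P144813, was well above background in no 10W sample of any tissue. It passed the filter in the kidney, at -7.93, -7.53 and -7.62 against -4.43, -4.86 and -5.37 at 90W, a rise of at least 1.46-fold (adjusted p = 0.000320). In WAT it went from -7.70, -8.05 and -8.01 to -2.61, -4.003 and -3.73, a rise of at least 4.53-fold (adjusted p = 0.00672). Both probes were higher at 90W in the kidney and WAT, where both were tested. The dim probe passed the filter there through its 90W samples alone, so its direction adds no independent support. In the liver it was well above background in 1 sample, and in the lung in none, and it was tested in neither. Which of the transcripts, that of p16 or that of Arf, either probe detects is not given in the sources used here.

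Cdkn2b encodes p15, an Ink4 protein known to be induced by TGF-beta. It was called higher at 90W in the kidney and the liver by both of its probes and in neither the lung nor WAT. By probe A_52_P498241, the kidneys were at -1.60, -1.61 and -1.09 at 10W and at 0.53, 0.42 and 0.44 at 90W, a change of 1.90 (SE 0.16, adjusted p = 0.000254). The livers were at -3.82, -3.83 and -3.34 against -2.31, -2.77 and -2.01, a change of 1.30 (SE 0.25, adjusted p = 0.0139). The groups did not overlap in either tissue. The liver call was lost without the 10W sample 1 (adjusted p = 0.0524) or the 10W sample 2 (adjusted p = 0.0585).

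In the lung, which had the highest Cdkn2b level of the 4 tissues at 10W, its values were 3.02, 2.67 and 2.33 at 10W and 2.41, 1.89 and 1.06 at 90W. These overlap, and the change of -0.89 (SE 0.37) was not called (adjusted p = 0.186). In WAT the values were 0.65, 1.20 and 0.94 against 1.11, 0.87 and -0.08, with a change of -0.30 (adjusted p = 0.672). Probe A_55_P1988183 gave changes of 1.89 in the kidney (adjusted p = 0.000431), 1.10 in the liver (adjusted p = 0.0248), -0.98 in the lung (adjusted p = 0.155) and -0.19 in WAT (adjusted p = 0.762), so the probes did not differ in any call. The liver call of this probe was lost without the 10W sample 2 or 3 or the 90W sample 1 or 4 (adjusted p between 0.0544 and 0.0868).

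Cdkn2c encodes p18, an Ink4 protein that is induced as fat and muscle cells differentiate. Its level was highest in WAT at both ages. In WAT every 90W sample, at 3.28, 3.98 and 3.35, lay below every 10W sample, at 4.55, 4.97 and 5.28, but the change of -1.40 (SE 0.29) missed the threshold (adjusted p = 0.0680). Among all WAT probes tested, 15.4% lay below in this way. The call was made when all 24 arrays shared 1 estimate of the spread (adjusted p = 0.000382) and with weights for array quality (adjusted p = 0.0195).

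In the kidney Cdkn2c was called higher, from 0.94, 1.08 and 1.07 to 1.57, 1.41 and 1.46, a change of 0.45 (SE 0.09, adjusted p = 0.00482) that was no longer called with the spread of all 24 arrays (adjusted p = 0.139). The changes in the liver (-0.10, adjusted p = 0.823) and the lung (-0.16, adjusted p = 0.393) were not called. The liver value has no stable sign, since it turned to 0.011 with spike-in scaling.

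Cdkn2d encodes the Ink4 protein p19, distinct from the Arf protein of Cdkn2a. No tissue gave a call, with changes of 0.06 in the kidney (adjusted p = 0.654), 1.10 in the liver (adjusted p = 0.142), 0.21 in WAT (adjusted p = 0.692) and 0.68 in the lung (adjusted p = 0.250). The 10W livers were at 0.68, -0.26 and 0.50 and the 90W livers at 0.97, 2.56 and 0.67. The lungs were at 2.28, 2.45 and 2.27 against 2.76, 3.80 and 2.49. In both tissues the 90W sample 2 was the highest, and without it the change was 0.52 in the liver (adjusted p = 0.267) and 0.29 in the lung (adjusted p = 0.215). The summed level of 5 neutrophil markers was 1348 in that liver and 1303 in that lung, against 17.1 to 25.8 and 153 to 297 in the other 90W samples, and 1.90 to 7.17 and 50.2 to 130 at 10W. In the kidney these markers summed to 0.48 to 0.84 at 10W and 2.47 to 9.43 at 90W, with 3 of 4 called higher, while Cdkn2d changed by 0.06. In WAT the 90W sample 3 had the highest sum, 851, and the highest Cdkn2d, 2.73. The 10W WAT sample 2, with the lowest sum there, 1.91, had the next highest Cdkn2d, 2.37. The part of these markers in the Cdkn2d values was not tested.

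**Figure D2:**
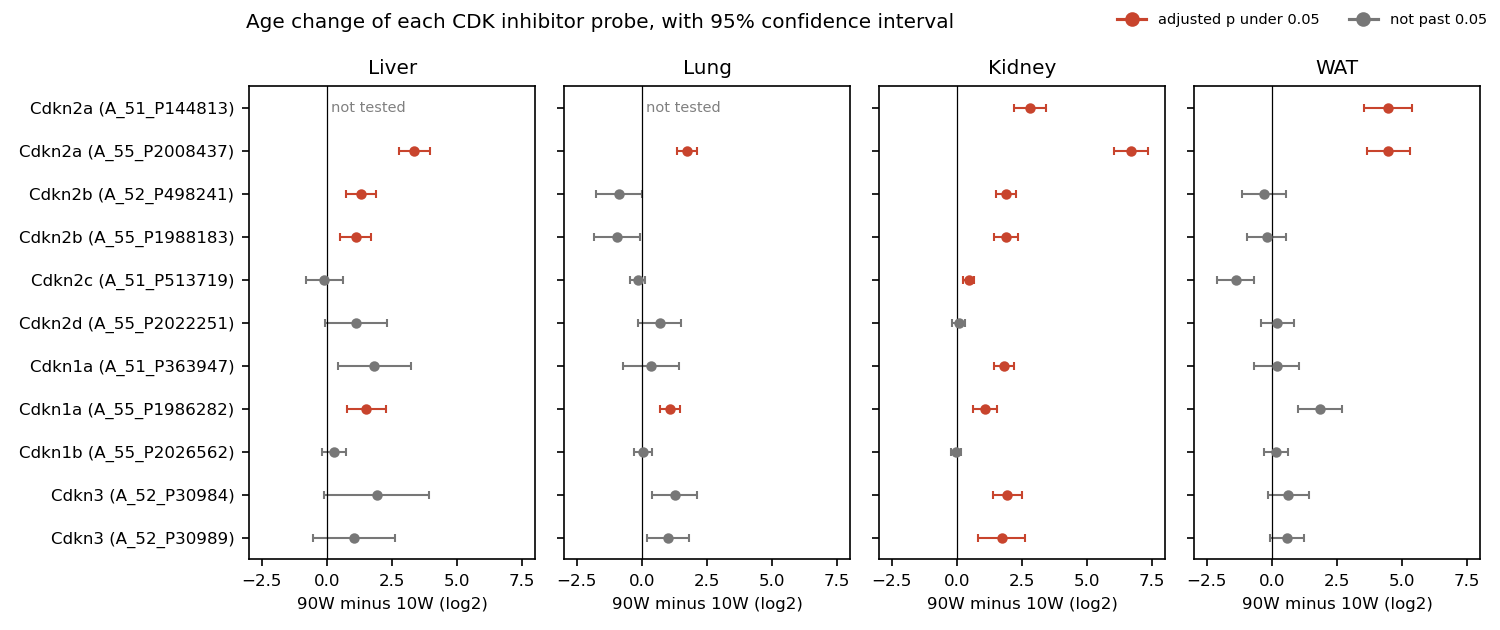
Change from 10W to 90W (log2, horizontal axis) of each CDK inhibitor probe (rows) in each tissue (panels), with 95% confidence intervals from limma and red where the adjusted p was under 0.05. All 17 red points lie above 0. The Cdkn2a points in the kidney, that of A_51_P144813 in WAT and that of A_55_P1986282 in the liver are fitted against young samples of which none was well above background, and A_51_P144813 was not tested in liver and lung.

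Cdkn1a encodes p21, the best known target of p53 among these genes. Its 2 probes, the bright A_51_P363947 and the dim A_55_P1986282, carry the accessions of different transcripts, and they gave different calls. By the bright probe, Cdkn1a was called in the kidney alone, from -1.15, -0.76 and -0.52 to 0.99, 1.04 and 0.97, a change of 1.81 (SE 0.16, adjusted p = 0.000336). The liver gave the same size of change, 1.81, with a far larger error (SE 0.59, adjusted p = 0.0606). The 10W livers were at 0.57, 0.25 and -0.91 and the 90W livers at 0.55, 2.19 and 2.60, so the 90W sample 1 lay among the young ones. Without it the change in the liver was 2.43 and was called (adjusted p = 0.0265). Leaving out any other sample gave 1.37 to 2.11, and the replicate number as a block 0.96 (adjusted p = 0.267), none of them called. Of all 18 alternatives for this probe in the liver, 6 called it higher.

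The lungs, at 2.11, 2.91 and 2.68 against 1.96, 3.44 and 3.32 at 90W, differed by 0.34 (adjusted p = 0.643). Leaving out 1 sample moved the change between 0.072 (without the 90W sample 2) and 0.81 (without the 90W sample 1, which carried liver markers), and none of these was called. In WAT the values were 1.79, 2.04 and 1.51 against 1.89, 1.36 and 2.62, a change of 0.18 (adjusted p = 0.810). Both tissues overlapped between the ages, and both had a higher 10W level than liver and kidney, without overlap.

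By the dim probe A_55_P1986282, every 90W sample lay above every 10W sample in all 4 tissues. In the liver it went from -4.84, -5.40 and -5.53 to -3.35, -4.38 and -3.54, a rise of at least 1.74-fold (adjusted p = 0.0182), as no 10W liver was well above background. In the lung it went from -4.62, -4.20 and -4.06 to -3.22, -3.20 and -3.22, a change of 1.08 (SE 0.16, adjusted p = 0.0232). The kidney change was 1.06 (SE 0.19, adjusted p = 0.00368), from -4.77, -4.58 and -5.20 to -3.54, -3.89 and -3.94. These 3 tissues were called. The WAT change was larger, 1.85 (SE 0.35), from -5.90, -5.16 and -5.63 to -3.07, -4.17 and -3.91, but missed the threshold (adjusted p = 0.0572). It was called in 2 of 16 alternatives. Whether the changes of the probes differ within a tissue was not tested. With normexp the change of the dim probe fell to 0.39 in the liver (adjusted p = 0.0952) and 0.28 in the kidney (adjusted p = 0.0706), neither called. The liver call of this probe was lost without the 10W sample 2 (adjusted p = 0.0689) or sample 3 (adjusted p = 0.0509), and leaving out any 1 of the 3 young lungs or the 90W lung sample 3 ended the lung call (adjusted p between 0.0544 and 0.0918).

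The share of all probes with every 90W sample above every 10W sample was 23.0% in the kidney, 16.3% in the liver, 13.7% in WAT and 11.6% in the lung. By brightest probes, 5 of the 7 inhibitors did so in the kidney, 2 in the liver, 1 in WAT and 3 in the lung.

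Cdkn1b encodes p27, whose amount is known to be set largely by protein breakdown through Skp2. No tissue gave a call for its transcript, with changes of -0.03 in the kidney (95% confidence interval -0.23 to 0.17), 0.28 in the liver (-0.19 to 0.74), 0.15 in WAT (-0.31 to 0.61) and 0.03 in the lung (-0.32 to 0.37). The adjusted p was between 0.317 and 0.920. In the kidney the 6 samples lay between 2.50 and 2.65, the narrowest range of the inhibitors there.

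Cdkn3 was called higher in the kidney by both probes. By A_52_P30984 the kidneys were at -3.52, -2.66 and -2.84 at 10W and at -1.19, -0.91 and -1.14 at 90W, a change of 1.92 (SE 0.23, adjusted p = 0.000794). In the liver the values were -4.31, -2.70 and -3.41 against -2.30, 0.46 and -2.87, a change of 1.90 with an SE of 0.86 (adjusted p = 0.134). The 90W liver sample 2 again stood far above the rest, and without it the change was 0.89 (adjusted p = 0.218). In the lung every 90W sample, at -1.69, -0.34 and -1.54, lay above every 10W sample, at -2.41, -2.44 and -2.50. That change of 1.26 (SE 0.36) missed the threshold (adjusted p = 0.0946) and was called, at 0.84, without the 90W lung sample 2 (adjusted p = 0.0182). In WAT the change was 0.64 (adjusted p = 0.330), with overlap. Probe A_52_P30989 gave 1.72 in the kidney (adjusted p = 0.00741) and 1.05, 0.99 and 0.57 in the liver, lung and WAT, none of them called.

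The age change of Cdkn2a, Cdkn2b and Cdkn2c differed between the tissues. In a limma fit of all 24 arrays, the moderated F over tissues had an adjusted p of 2.03e-06 for Cdkn2a, 0.000415 and 0.000406 for the Cdkn2b probes and 0.00225 for Cdkn2c, while 36.4% of the 32857 probes tested in all tissues were called. The F test of the bright Cdkn1a probe gave an adjusted p of 0.0849, that of the dim one 0.306, and those of Cdkn2d, Cdkn1b and the Cdkn3 probes between 0.347 and 0.582. The dim Cdkn2a probe was not in this fit, and the F of Cdkn2a includes the kidney, where the young signals were below detection.

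Between pairs of tissues, the Cdkn2a change was larger in WAT than in the lung by 2.76 (SE 0.40, adjusted p = 0.00116), where all samples of both tissues were well above background. It was larger in the liver than in the lung by 1.64 (adjusted p = 0.0105), with only 1 of the 3 young livers above background. The size of that difference is not settled, as with normexp the changes were 1.77 in the liver and 1.46 in the lung. The difference of -1.12 between liver and WAT was not called (adjusted p = 0.0614). No difference from the kidney is given for Cdkn2a, since its change there is a bound. The Cdkn2b change by A_52_P498241 in the kidney exceeded that in the lung by 2.79 (adjusted p = 0.000378) and that in WAT by 2.20 (adjusted p = 0.00239). In the liver it exceeded the lung by 2.19 (adjusted p = 0.00360) and WAT by 1.60 (adjusted p = 0.0210). The difference between the kidney and the liver was not called (adjusted p = 0.471, 95% confidence interval of liver minus kidney -1.55 to 0.35). The Cdkn2c change in WAT lay below that of the kidney by 1.85 (adjusted p = 0.000894), the liver by 1.30 (adjusted p = 0.0122) and the lung by 1.23 (adjusted p = 0.0481). Among all probes, 15.8% were called for liver against lung, 9.04% for liver against kidney, 17.8% for liver against WAT, 22.7% for lung against kidney, 3.21% for lung against WAT and 24.1% for kidney against WAT.

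The kinases and cyclins that these inhibitors act on were read by fixed lists, against 23.6% of all genes called higher and 44.5% called lower in the kidney, 12.4% and 14.5% in the liver, 1.95% and 0.610% in WAT, and 3.29% and 3.48% in the lung. Of 7 D-type and E-type cyclins and partner kinases tested, 5 were called higher and 1 lower in the kidney, 1 higher in the liver, 1 higher in the lung and none in WAT. The largest were Ccne1 (1.72) and Ccnd2 (1.65) in the kidney, Ccnd2 (1.11) in the liver and Ccne1 (1.24) in the lung, cyclins that open the way into DNA synthesis. Of 5 A-type and B-type cyclins and Cdk1, the S phase and mitosis partners, 4 were called higher in the kidney, 2 in the liver and 2 in the lung, with 1 called lower in the liver and none called in WAT. Ccna2 and Cdk1 were called higher in the liver (1.99 and 1.63), the lung (1.40 and 1.04) and the kidney (1.97 and 2.21), and Ccnb1 rose by 2.09 in the kidney.

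Among 13 RB family and E2F genes, which carry the signal from the kinases to transcription, 3 were called higher and 5 lower in the kidney, 1 in each direction in the liver, and none in the lung or WAT. Rbl1 (1.95) and E2f7 (-0.60) were the called genes of the liver, and E2f8 (1.97) and E2f5 (-0.92) had the largest changes in the kidney, where the counts are near the shares of all genes. Cdkn1c (p57), the remaining Cip/Kip gene, was called in the kidney only, with a change of 1.79 (adjusted p = 0.000343) and of 0.11, -0.32 and 0.66 in the liver, lung and WAT. In the kidney the split of called genes depends on the scaling: relative to spiked-in RNA, where the median change of all kidney probes was 0.16 and not -0.23, the RB and E2F list had 5 called higher and 1 lower, the D-type and E-type list 6 and none, and the A-type and B-type list an unchanged 4 and none. Over all kidney probes, 8198 were called higher and 16927 lower, against 11823 and 5552 relative to the spike-in, and over all liver probes 3597 and 5664 against 3163 and 1204, or 3046 and 8009 with normexp. The 5 inhibitors called in the kidney were called higher under that scaling too.

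**Figure D3:**
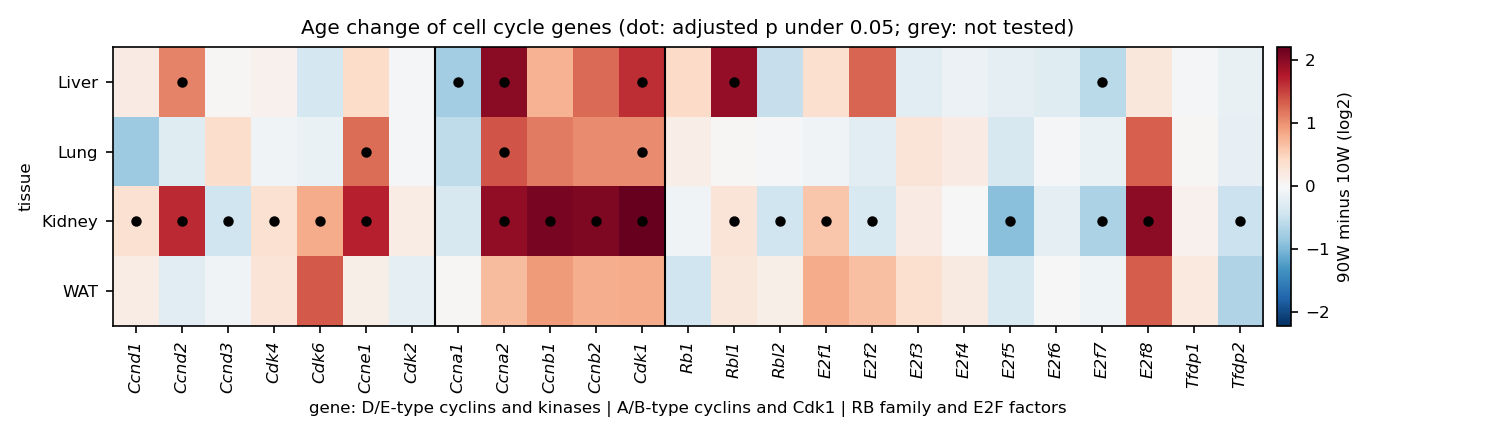
Change from 10W to 90W (colour, log2) of cyclins, cyclin-dependent kinases, RB family and E2F genes (columns) in the 4 tissues (rows), with a dot where the adjusted p was under 0.05 in limma. Most dots lie in the kidney row, none lies in the WAT row, and Ccna2 and Cdk1 carry a dot in liver, lung and kidney.

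Known regulators of the inhibitors were also read by fixed lists. Of 15 polycomb and chromatin genes that act on the Ink4 locus, 1 was called higher and 6 lower in the kidney, led by Cbx2 (-0.94) and Cbx8 (-0.82), against 23.6% and 44.5% of all genes there, and none in the other tissues; relative to the spike-in, 4 were called higher and none lower in the kidney. Of the transcription factors known to act on these genes, 4 of 22 were called higher and 2 lower in the liver, with Trp63 (1.62) and Foxo4 (-2.21) the largest, and 9 of 22 higher and 2 lower in the kidney, led by Myc (1.66) and Klf4 (1.58); relative to the spike-in, 12 were called higher and none lower in the kidney. None was called in the lung or WAT. Of 7 genes of p53 and p27 turnover, Skp2 was called in the liver (1.39), and Cks1b (1.38) and Skp1 (-1.04) were the largest of 4 called in the kidney, 1 higher and 3 lower, against 2 higher and 1 lower relative to the spike-in.

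Markers of immune and dividing cells were read by fixed lists too, against the shares of all genes called in a tissue. Those shares were 23.6% higher and 44.5% lower in the kidney and 12.4% and 14.5% in the liver. In the lung they were 3.29% and 3.48%, and in WAT 1.95% and 0.610%. The summed level of 6 macrophage markers was 23.5 to 26.8 in the 10W and 99.5 to 141 in the 90W kidneys, 55.3 to 76.8 and 233 to 287 in the livers, and 51.3 to 160 and 311 to 672 in WAT, with 6, 6 and 2 of the 6 markers called higher. In the lung it was 47.1 to 49.2 at 10W and 35.7 to 154 at 90W with no marker called. The 7 markers of cycling cells summed to 1.73 to 2.56 in the 10W and 8.35 to 9.25 in the 90W kidneys, 2.26 to 2.75 and 5.20 to 22.9 in the livers, 3.93 to 4.09 and 7.35 to 10.6 in the lungs, and 5.54 to 8.87 and 9.25 to 19.2 in WAT. Of these markers 7 of 7 were called higher in the kidney, 6 of 7 in the lung, 4 of 6 in the liver and none of 7 in WAT. Of 6 T cell markers, 5 were called higher in the lung and 5 in the kidney, where the sixth was called lower, 4 in WAT and 3 in the liver. Their summed level in the liver went the other way, from 43.3 to 60.8 at 10W to 39.2 to 42.0 at 90W, while it was higher in every 90W sample of the lung, kidney and WAT. Of 6 B cell markers, 4 were called higher in WAT and 4 in the kidney, with 1 lower there, 1 in the liver and none in the lung. Plasma cell markers were called higher in the kidney (4 of 5), WAT (3 of 5) and liver (2 of 4), and none of 5 in the lung. Their summed level in the liver overlapped between the ages, at 71.1 to 104 at 10W and 68.2 to 99.4 at 90W. Neutrophil markers were called higher in 3 of 4 in the kidney, 1 of 5 in the liver and the lung and none of 4 in WAT, and in 5 of 5 in the liver with spike-in scaling. The part of any of these cells in the changes of the inhibitors was not tested.

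**Figure D4:**
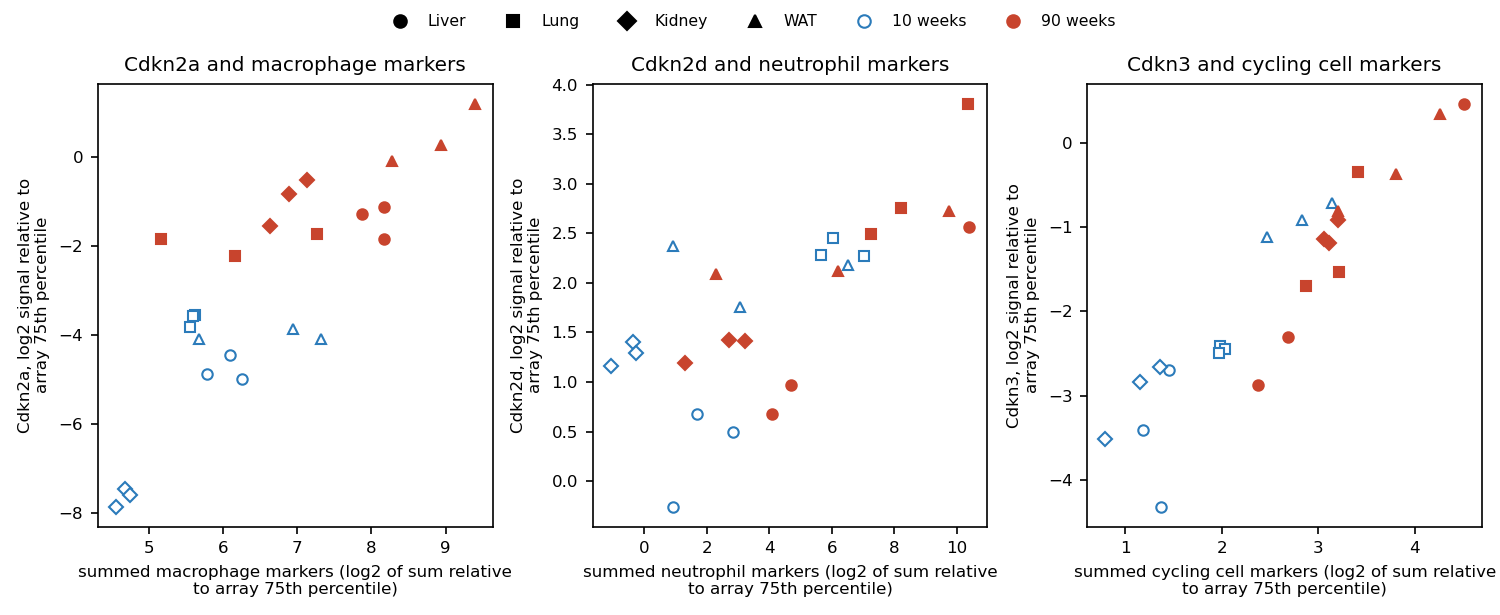
Log2 signal of Cdkn2a, Cdkn2d and Cdkn3 (vertical axes) against the log2 summed level of macrophage, neutrophil and cycling cell markers (horizontal axes), 1 point per sample, with shape for tissue and colour for age. The 90W samples of Cdkn2a lie above the 10W samples, and the liver and lung samples with the most neutrophil marker signal (summed level 1348 and 1303) have the highest Cdkn2d of their tissue.

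The genes most like each inhibitor were found by Pearson's r over the 24 arrays after the mean of each tissue was subtracted, among 15511 genes, so that the r describes age and sample differences together. Cdkn2a was most like Crlf2 (r = 0.976), Pik3r5 (0.975) and Cd84 (0.973). Cdkn3 was most like Aurka (0.976), Plk1 (0.976) and Ccna2 (0.970), genes of the mitotic machinery and of S phase. Cdkn2d was most like Prtn3 (0.907), a protease of neutrophil granules, Nbeal2 (0.899) and Prg3 (0.888). Cdkn2b was most like Emp2 (0.928), Pdgfb (0.907) and Tax1bp3 (0.907), and Cdkn1a most like Phc2 (0.906), Tapbp (0.853) and Hnrnpa1l2-ps2 (0.853). The best matches of Cdkn2c, Itga7 (0.864), Mylk (0.851) and Zfp783 (0.844), and of Cdkn1b, Pnrc1 (0.832), Mon1b (0.825) and Gpatch8 (0.817), were weaker. These correlations share tissues, slides and ages and are given as a description.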

How the data were processed

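Total RNA of each tissue was labelled with Cy3 and hybridised to 1-colour Agilent arrays. The intensity values were deposited by the authors and, per the file headers, were made by Agilent Feature Extraction 11.0.1.1: a processed signal per spot, background-subtracted and not scaled between arrays, and flags for spots that are saturated, uneven or well above background. No spot was saturated, and 1841 spots of non-control probes, with an outlier flag, were dropped in all. The files carry a mouse design on mm9, although the kit named in the methods is one for human genes. Probes were named by matching their accession to RefSeq genes (GRCm38.p6); 32994 of 56605 probes (58.3%) matched.

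The 75th percentile over non-control probes was subtracted from log2 of the processed signal on each array. A probe was tested in a tissue if 3 or more of its 6 arrays had it well above background. Tests were made with limma 3.58.1 in R 4.3.3 (lmFit and eBayes), 90W against 10W in each tissue, with Benjamini-Hochberg adjustment over all probes of the tissue and a threshold of 0.05. Differences between tissues were tested in 1 fit of all 24 arrays. A gene is counted by its brightest probe in the tissue. The fit was tested on simulated data. Signal over background limits the precision, since no read depth exists for arrays.

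The alternatives were normexp background correction (offset 16), quantile normalization, centring on the median, spike-in scaling (230 of 350 spike-in spots), no filter or a filter on all 6 arrays, 1 brightest probe or a mean over the probes of a gene, a common fit over all 24 arrays, a block for the replicate number, array weights, the methods' t-test, and leaving out each sample. All probes of the 7 genes are named; of each other list, the genes called the same way in at least 3 tissues and the 2 with the largest called change in a tissue; and for each inhibitor the 3 most similar genes. The inhibitors and the gene lists were chosen with earlier results of these data known.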

Additional observations from a re-analysis of the deposited data

Results flagged for a closer look

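The age change of 3 inhibitors differed between tissues in the test of that difference over all 24 arrays (moderated F with Benjamini-Hochberg adjustment in limma). For Cdkn2a by probe A_55_P2008437 the F was 53.02, with a change of 1.71 in the lung, 3.35 in the liver and 4.47 in WAT and a rise of at least 22.2-fold in the kidney, where no young sample was well above background; every 90W sample lay above every 10W sample of its tissue. For Cdkn2b the F was 16.8 by A_52_P498241 and 16.9 by A_55_P1988183, with changes from -0.98 in the lung to 1.90 in the kidney. For Cdkn2c the F was 11.02, with changes from -1.40 in WAT to 0.45 in the kidney. These calls remained under each of the 11 alternatives run for this test.

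The dim Cdkn2a probe A_51_P144813 was left out of the liver test because it was well above background in only 1 of the 6 livers. That liver, of 90W, was at -4.49, against -6.88 to -6.75 in the 10W livers, none of which was well above background.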

How the results depend on the processing

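The number of inhibitor genes called higher in the liver, 2, was 5 with all 24 arrays in 1 fit and 5 with spike-in scaling, 1 with the methods' t-test after adjustment, and between 1 and 3 when 1 sample was left out. In the lung the count of 1 was 0 with the methods' t-test after adjustment and 2 before it, and lay between 0 and 2 when 1 sample was left out. The kidney count of 5 was never below 4, and was 5 whichever sample was left out. The WAT count of 1 was 0 with the adjusted t-test and 1 whichever sample was left out; the count called lower in WAT, 0, was 1 with all 24 arrays, with array weights and with the unadjusted t-test, by Cdkn2c each time. The array weights did not fully converge in 1 tissue. With the replicate number as a block the counts of 2, 1, 5 and 1 in liver, lung, kidney and WAT did not change, but in the liver the Cdkn2b call was lost (adjusted p = 0.0589) and Cdkn3 was called (adjusted p = 0.0411), and the dim Cdkn1a probe lost its call in the liver (adjusted p = 0.0606) and the lung (adjusted p = 0.0759). Same-numbered samples of the 2 ages correlated between -0.17 and 0.16 in their deviations from the group means, and differently numbered ones between -0.17 and 0.25. With 3 samples in a group these values cannot show whether the numbers pair samples, and the labels do not say. Of 736 values for single probes under the alternatives, 673 kept direction and side of the threshold, 31 lost a call, 16 gained one and 16 turned, none of these for a called result. Cdkn2c in the liver turned to 0.011 with spike-in scaling and 0.056 with the block, and ranged from -0.44 to 0.13 over the fits without 1 sample. Over the same kind of fits, lung Cdkn1b ranged from -0.10 to 0.11 and kidney Cdkn1b from -0.078 to 0.0014, and it turned to -0.073 in the lung and 0.36 in the kidney with spike-in scaling and to 0.22 in the kidney with quantile normalization. Cdkn2d in the kidney turned to -0.0015 with centring on the median and ranged from -0.0053 to 0.13, and in WAT it turned to -0.015 with array weights. In WAT the fits without 1 sample gave -0.54 to 0.057 and -0.40 to 0.12 for the Cdkn2b probes and -0.15 to 0.48 for the bright Cdkn1a probe, the turned value each time without the 90W sample 3. The cause was not tested. Leaving out the 10W lung sample 1 or 2 lowered the calls over all lung probes from 1049 higher to 39 and 57, against 97 with the block and 428 with no filter. Dim probes limit the size of the Cdkn2a and Cdkn1a changes, since young samples lay at or below background.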

Other observations

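The promoters of the other inhibitors differed in the searched motifs. Cdkn2b held a CHR element that began 161 bases before its start and no GC box. The upstream start of Cdkn2c held an E2F motif 25 bases before it and 3 GC boxes, and its downstream start held none of the motifs. Cdkn1b held 1 GC box. Cdkn2d held 3 GC boxes before the start used for the search, all of them downstream of the most upstream start of the gene. No inhibitor promoter held a TATA box (TATAAA) or an E-box (CACGTG), which 12.4% and 6.02% of the promoters held.

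After the tissue means were subtracted, the strongest pairs of inhibitors over the 24 arrays were Cdkn2d with Cdkn3 (r = 0.707), Cdkn1b with Cdkn2d (0.701), Cdkn1a with Cdkn2a (0.697), and Cdkn2a with Cdkn3 (0.691). The neighbours Cdkn2a and Cdkn2b had an r of 0.556, and Cdkn2a and Cdkn2c one of -0.247. These values describe arrays that share tissues, ages and slides.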
